A study of Mus musculus with 8 samples.

Results

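The genes that make ribosomes were examined in sorted bone marrow cells, named stem cells in the labels, of chronic myeloid leukemia (CML) mice with and without imatinib. The module held 45 genes listed by function: the ribosomal RNA precursor Rn45s, the transcription factor Myc, 5 subunits and 4 initiation factors of RNA polymerase I, 7 proteins of small nucleolar ribonucleoproteins, 14 factors of the small and 7 of the large ribosomal subunit, and 6 other nucleolar proteins. All 45 symbols were among the 15576 genes of the table, and all 45 passed the filter on low counts that left 11989 genes for testing. The question was whether these genes differed between 4 CML libraries from untreated mice and 4 CML-TKI libraries from mice given the tyrosine kinase inhibitor (TKI) imatinib.

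Both groups came from the bone marrow of C57BL/6 double transgenic mice (BCR-ABL×SCL-tTA). In these animals BCR-ABL is expressed in stem cells once tetracycline is withdrawn, so the untreated group carries the oncogene too. CML-TKI mice received imatinib by gavage on alternate days at 400 mg/kg for 4 weeks according to the labels, whereas the study's own account of these RNA-seq mice gives a lower dose. The labels do not give an age or sex for the samples. They describe all 8 sorts as lineage-negative, Sca1-positive, cKit-positive, Flt3-negative, CD150-negative and CD48-positive, whereas the study's figure legends define leukemic stem cells as CD150-positive and CD48-negative. Levels are given as CPM, counts scaled to a fixed library total from which Rn45s was left out. Slamf1, which encodes CD150, had 38.2 to 47.2 CPM in CML and 0.780 to 8.29 CPM in CML-TKI. Cd48 had 4.82 to 8.002 CPM in CML and 49.9 to 224 CPM in CML-TKI. Of the 5 genes of the gate, 3 passed the test, namely Slamf1 and Kit as lower and Cd48 as higher in CML-TKI (edgeR, Benjamini-Hochberg adjusted p = 0.00751 for Slamf1 and 0.000802 for each of the other two). Kit had a log2 fold change of -1.93, and Ly6a, which encodes Sca1, and Flt3 had adjusted p-values of 0.366 and 0.532. These are RNA levels, whereas the gates read surface proteins. For Slamf1 and Cd48, the CML libraries went with the gate of the figure legends and the CML-TKI libraries with that of the labels. The levels leave the labelled gate in doubt for the CML sorts. They leave the name of leukemic stem cells in doubt for the CML-TKI sorts.

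Ribosomes are assembled in the nucleolus, where RNA polymerase I copies repeated ribosomal DNA into one long precursor that is cut and modified into the mature RNAs of both subunits. Small nucleolar RNAs bound by partner proteins guide the chemical modification of that precursor, and a large set of helicases and scaffold proteins folds it, trims it and joins it to ribosomal proteins. Myc binds DNA as a dimer with Max at E-boxes and is known to drive polymerase I and many assembly factors in growing cells, while quiescent blood stem cells are known for a low rate of protein synthesis.

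Total counts ranged from 4939644 to 8620101 in the CML libraries and from 1041552 to 5104268 in the CML-TKI libraries, so a gene with 3 counts stood for 0.511 to 0.723 CPM in CML and for 0.712 to 4.15 CPM in CML-TKI. The fourth CML column is named 5 and is called CML 5 here. No label gives that number, so the column was matched to the group CML and not to a labelled sample. The least deep library, CML-TKI 3, had fewer than 30 counts for 19 of the 45 genes, against 0 or 1 in the other 7 libraries. Marker genes of several cell types also moved with the groups. Summed granulocyte markers were at 195 to 354 CPM in CML and 1886 to 10768 CPM in CML-TKI, with 13 of 14 higher by edgeR, and all 8 monocyte markers were higher, at 17.9 to 33.3 against 1015 to 5507 CPM. Summed HSC markers lay at 1509 to 1809 CPM in CML and 87.8 to 554 CPM in CML-TKI, with 4 of 9 lower, and megakaryocyte markers at 1829 to 2325 against 61.2 to 676 CPM, with 2 of 6 lower. Summed mitosis and S phase markers lay at 2987 to 3895 CPM in CML and 3988 to 5648 CPM in CML-TKI. By edgeR, 1 of 10 was higher (Ccna2), beside 6.26% of all genes, with 8 estimates above 0 and 2 below. Among them, Mki67 was at 69.3 CPM in CML 5 against 788 to 896 CPM in CML 1 to 3. Of the endothelial markers, 2 of 5 were lower, at 194 to 359 against 70.3 to 152 CPM in sum. No gene of these 6 lists was at 0 in every library of a group. Summed lymphoid markers lay at 0.239 to 1.53 CPM in CML and 7.83 to 60.2 CPM in CML-TKI, and of the 6, 3 were at 0 in every CML library and 2 in every CML-TKI library. Fewer cells of a type and less RNA per cell cannot be told apart in such bulk samples, and the part of these markers in any result given here was not tested. Nothing states that each library came from a separate animal, so p-values measure the spread between these samples, which may be technical. CML 1, 2 and 3 lay much closer to each other than any other pair of libraries (chi-square per degree of freedom of 3.58 to 4.75, against 23.8 to 114). If they share a source, the p-values given here are too small. With the 3 summed to 1 library, edgeR called 123 of all genes and 0 of the 45, with 2 of the 45 at an unadjusted p under 0.05.

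Between CML-TKI and CML, none of the 45 genes passed the threshold (edgeR's quasi-likelihood test, Benjamini-Hochberg adjusted p under 0.05), while 1238 of all 11989 genes tested did (10.3%). At an unadjusted p under 0.05 there were 4 of the 45, all with estimates below 0, against 25.8% of all genes. DESeq2 called 1 of the 45, Polr1b, against 18.5% of all genes with a value, and limma-voom with quality weights called 0, against 21.7%. Estimates were above 0, that is higher in CML-TKI, for 20 genes and below 0 for 25, with a median log2 fold change of -0.07 beside -0.01 for all genes tested. They ran from -0.84 for Nop10 to 0.46 for Wdr75, so none reached a 2-fold change. When each library was left out in turn, the median of the 45 ran from -0.20 (without CML-TKI 1) to 0.03 (without CML-TKI 3). The 95% interval lay wholly within 2-fold in either direction for 20 of the 45 (44.4%), beside 23.8% of all genes. For the other 25, a change of that size was not excluded by these libraries. The median standard error was 0.33 for the 45 and 0.40 for all genes, and the part of expression level in these shares was not tested.

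**Figure D1:**
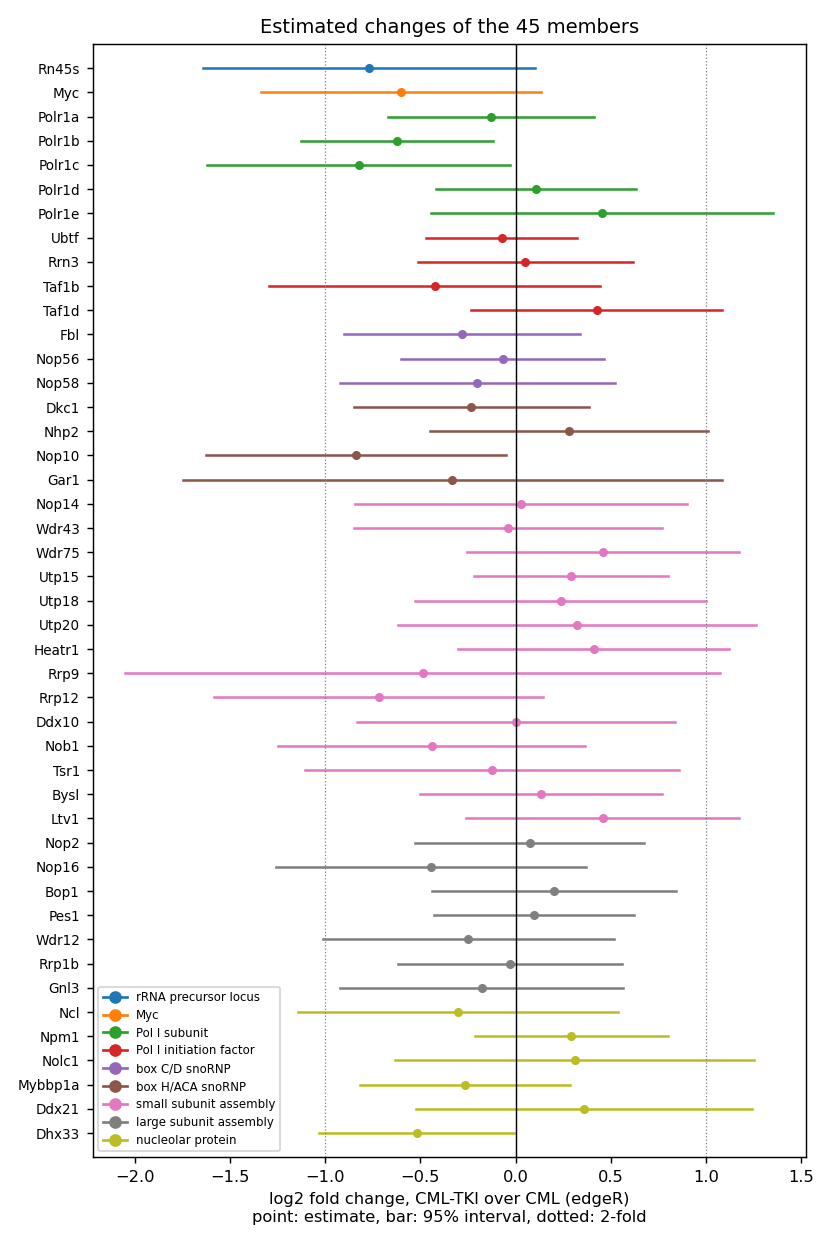
Log2 fold change of CML-TKI over CML for the 45 genes (horizontal axis), grouped by role, with 95% intervals from edgeR as bars and dotted lines at a 2-fold change. Every estimate lies between -0.84 and 0.46, and the interval stays on one side of 0 for Polr1b, Polr1c, Nop10 and Dhx33.

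The groups overlapped in all but 2 genes. All 4 CML-TKI libraries lay below all 4 CML libraries for Polr1b, as they did for 13.5% of all genes, and above them for Taf1d, as for 10.1% of all genes. The cumulative curve of the 45 estimates crossed that of all genes near 0 and was steeper, since the tails of the whole table, which reach -10.10 and 9.83, were not present among these genes. As in the plot of estimates, no role of more than 1 gene stood wholly on one side except the 3 box C/D proteins, whose estimates were all below 0, although each of the 3 changed sign under at least 1 alternative.

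**Figure D2:**
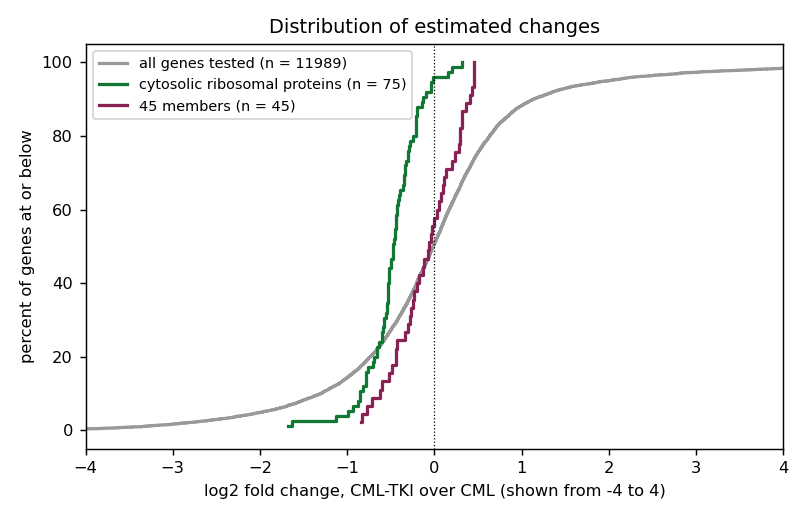
Percent of genes at or below each log2 fold change of CML-TKI over CML, for all 11989 genes tested (grey), the 45 genes (purple) and 75 cytosolic ribosomal protein genes (green). The curve of the 45 passes through 0 near its middle (median -0.07, and -0.19 without CML 5), and the ribosomal proteins lie to the left of it (median -0.47, and -0.22 without CML 5).

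Rn45s, the row of the polymerase I transcript from which 18S, 5.8S and 28S rRNA are cut, held 23.1%, 20.4%, 20.2% and 38.3% of all counts in CML 1, 2, 3 and 5. It held 17.2%, 9.23%, 22.5% and 13.9% in CML-TKI 1 to 4. CML 5 stood above all others, and CML-TKI 3 fell among CML 1 to 3, so the groups overlapped. The mean share was 25.5% ± 8.61 (SD, n = 4) in CML and 15.7% ± 5.58 (SD, n = 4) in CML-TKI, a difference of -9.82 percentage points (exact two-sided permutation test over 70 relabelings, p = 0.0857, where the smallest p possible is 0.0286). Without CML 5 the difference was -5.56 points (exact permutation p = 0.171), and without CML-TKI 3 it was -12.1 points (exact permutation p = 0.0571). The log2 ratio of Rn45s to all other counts differed by -0.91 (CML-TKI minus CML, exact permutation p = 0.0857). The CPM values are scaled further between libraries. Rn45s stood at 287721, 243998, 240991 and 597396 CPM in CML and at 208102, 108590, 323739 and 161833 CPM in CML-TKI. The log2 fold change was -0.77 (SE 0.39, 95% interval -1.65 to 0.10, edgeR adjusted p = 0.25). It was -0.37 without CML 5 and -1.11 without CML-TKI 3 (adjusted p = 0.122). Nothing in the sources says that rRNA was removed or which RNA was primed, so the row may hold mature rRNA as well as precursor and is not a measure of the rate of polymerase I. The 4 CML values were deposited in exponent form to 3 digits at most.

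The other 44 genes were also summed in each library. Summed over these 44, the level was 5079, 4968, 4428 and 3849 CPM in CML 1, 2, 3 and 5, and 5258, 4918, 2675 and 4426 CPM in CML-TKI 1 to 4. CML 5 was the lowest of its group and CML-TKI 3 the lowest of all 8. CML 1, with the second largest share of Rn45s, had one of the highest sums. The sums of the groups overlapped, at 4581 ± 565 CPM in CML and 4319 ± 1148 CPM in CML-TKI (SD, n = 4).

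**Figure D3:**
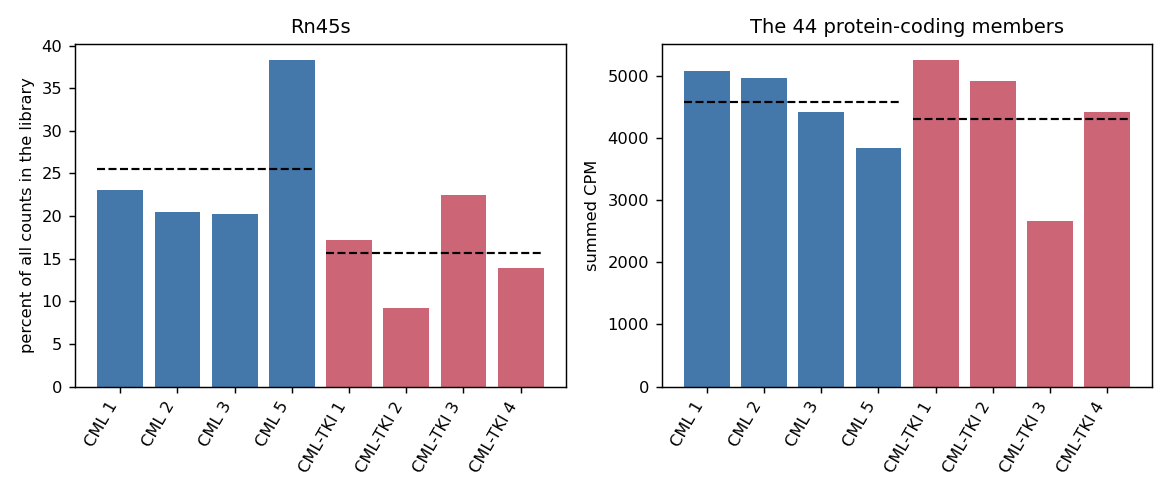
Left, percent of all counts held by Rn45s in each library, and right, the summed CPM of the 44 protein-coding genes, with CML in blue, CML-TKI in red and dashed lines at the group means. CML 5 has the largest Rn45s share (38.3%) and CML-TKI 3 the smallest sum (2675 CPM).

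Myc, at chr15:61985341-61990361 (GRCm38), encodes the transcription factor of the module. It measured 149, 132, 106 and 176 CPM in CML 1, 2, 3 and 5, and 96.9, 90.1, 41.5 and 139 CPM in CML-TKI 1 to 4. CML-TKI 3 was the lowest, and CML-TKI 4 lay within the range of the CML libraries. The mean was 141 ± 29.5 CPM in CML and 91.8 ± 39.9 CPM in CML-TKI (SD, n = 4), with a log2 fold change of -0.60 (SE 0.33, 95% interval -1.34 to 0.13, edgeR adjusted p = 0.287). Leaving out both CML 5 and CML-TKI 3, an alternative chosen after seeing the data, gave -0.25. Max, the partner through which Myc binds DNA, gave -0.15 (SE 0.25, adjusted p = 0.762).

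Of the 9 genes of the Myc network tested apart from Myc, edgeR called 1, a share near the 10.3% of all genes. Mlx, the Max-like partner of the glucose-sensing Mondo proteins and of some Mxd repressors, measured 22.3, 25.4, 24.8 and 36.0 CPM in CML and 55.6, 137, 53.9 and 51.4 CPM in CML-TKI, with every CML-TKI library above every CML library, as for 10.1% of all genes (log2 fold change 1.46, SE 0.37, adjusted p = 0.0362). Mycn, the paralog of Myc, measured 239, 212, 206 and 363 CPM in CML and 58.6, 0, 1.38 and 8.09 CPM in CML-TKI. It was singled out after its values were seen. Its groups did not overlap, as for 13.5% of all genes in this direction, and its log2 fold change of -3.76 (SE 1.05) had an adjusted p of 0.0508. Mnt, a repressor that also pairs with Max, lay at 51.1 to 76.9 CPM in CML and 26.2 to 42.9 CPM in CML-TKI (-0.83, SE 0.27, adjusted p = 0.0821).

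The canonical E-box, CACGTG, is its own reverse complement, so a single search covers both strands. In RefSeq promoters (GRCm38.p6, 250 bases before to 50 after a start), 10 of the 39 genes with a sequence held at least 1 (25.6%), beside 1134 of 9537 tested genes (11.9%). Only Rrn3, the factor that recruits polymerase I to the initiation complex, held 2. The stretches shown lie before a start that RefSeq gives, although that of Dhx33 is inside the span of the gene because another transcript begins further upstream. They show the letters that Myc and Max are known to read at members of 4 different roles, with the E-box in capitals and each written 5′ to 3′ on the strand of its gene. They are Rrn3 at chr16:13780457-13780516 and chr16:13780624-13780683 (plus strand), Nop2 at chr6:125131796-125131855 (plus), Utp18 at chr11:93885769-93885798 (minus) and Dhx33 at chr11:71004450-71004479 (minus).
Rrn3, E-box from -215: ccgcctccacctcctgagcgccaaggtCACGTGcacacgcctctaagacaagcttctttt
Rrn3, E-box from -48: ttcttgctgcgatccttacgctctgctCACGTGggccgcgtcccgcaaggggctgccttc
Nop2, E-box from -60: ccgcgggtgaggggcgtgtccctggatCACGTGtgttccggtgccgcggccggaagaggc
Utp18, E-box from -20: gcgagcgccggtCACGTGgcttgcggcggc
Dhx33, E-box from -35: ccagcacgcctgCACGTGgcgagaaagggg

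Among the 10 genes with an E-box, 6 estimates were above 0 and 4 below, with a median log2 fold change of 0.06, and among the 29 with a promoter and none, 12 were above and 17 below, with a median of -0.07. The 10 ranged from -0.52 for Dhx33 to 0.46 for Ltv1, and the other 3 genes whose promoters are printed gave 0.05 for Rrn3, 0.07 for Nop2 and 0.24 for Utp18. A match is a description of the sequence and does not show binding.

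Among the subunits of polymerase I, 2 estimates were above 0 and 3 below. Polr1b, at chr2:129100970-129128060, encodes the second largest subunit, which forms the catalytic centre together with Polr1a. It measured 178, 163, 169 and 188 CPM in CML 1, 2, 3 and 5, and 132, 122, 71.8 and 124 CPM in CML-TKI 1 to 4. Every CML-TKI library lay below every CML library, with CML-TKI 3 the lowest. The log2 fold change was -0.62 (SE 0.23, 95% interval -1.13 to -0.12), at an edgeR adjusted p of 0.112. DESeq2 gave -0.62 with an adjusted p of 0.0333, the single call among the 45 genes by that tool, and over all alternatives the estimate ran from -0.74 to -0.43.

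Polr1c, at chr17:46243920-46248045, encodes a subunit that polymerase I shares with polymerase III. It measured 34.0, 36.4, 29.4 and 53.8 CPM in CML, and 33.0, 19.9, 19.3 and 13.9 CPM in CML-TKI. CML-TKI 1 lay within the CML range, and the other 3 lay below it. The log2 fold change was -0.82 (SE 0.36, 95% interval -1.62 to -0.03, edgeR adjusted p = 0.179), the second largest of the module in size. Without CML-TKI 1 it was -1.12 with an adjusted p of 0.0454, in a fit that called 20.6% of all genes, and over all alternatives it ran from -1.12 to -0.50.

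The other subunits gave no common direction. Polr1a, the largest subunit, averaged 148 ± 20.7 CPM in CML and 134 ± 36.1 CPM in CML-TKI (SD, n = 4), and its 95% interval of -0.67 to 0.41 lay within 2-fold. Polr1d, the small partner of Polr1c in both polymerases, had an interval of -0.42 to 0.63. Polr1e, part of the dimer that helps polymerase I to start and elongate, had a positive estimate of 0.45 (95% interval -0.45 to 1.35), and limma-voom gave -0.08.

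Of the initiation factors, Ubtf, which wraps and keeps open the active ribosomal DNA, had the smallest standard error of the 45 genes. It lay at 157 to 186 CPM in CML and 155 to 183 CPM in CML-TKI, with a log2 fold change of -0.07 (SE 0.18, 95% interval -0.47 to 0.32). Rrn3 lay at 107 to 111 CPM in CML and 80.1 to 172 CPM in CML-TKI, so its spread was larger among the CML-TKI libraries, and its interval was -0.52 to 0.62. Its estimate changed sign under 4 of 20 alternatives, reaching -0.21. Taf1b and Taf1d belong to the promoter selectivity factor that binds the ribosomal DNA promoter. Taf1b gave -0.42 (95% interval -1.30 to 0.45), with its lowest value, 9.67 CPM, in CML-TKI 3, and over all alternatives it ran from -0.81 to -0.18.

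Taf1d, at chr9:15305953-15316997, was the only member of the 45 for which every CML-TKI library lay above every CML library. It measured 18.6, 25.6, 19.8 and 18.6 CPM in CML 1, 2, 3 and 5, and 26.4, 32.4, 26.3 and 25.9 CPM in CML-TKI 1 to 4. The gap was small, since CML 2 at 25.6 CPM nearly met CML-TKI 4 at 25.9 CPM. The log2 fold change was 0.43 (SE 0.30, 95% interval -0.23 to 1.09, edgeR adjusted p = 0.405), and it was -0.11 when every library was thinned to the depth of CML-TKI 3. RefSeq places 6 small nucleolar RNA genes inside Taf1d and 2 other genes overlap it, so its counts are uncertain.

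**Figure D4:**
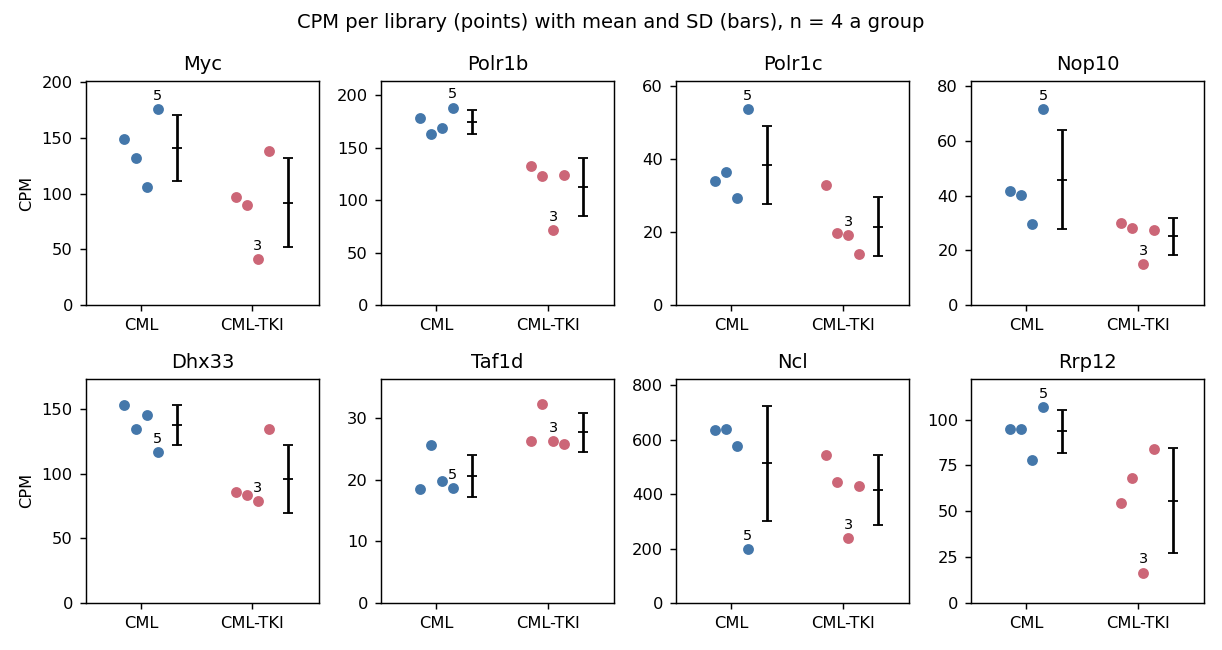
CPM of 8 genes in each CML (blue) and CML-TKI (red) library, with the mean and SD of each group beside the points (n = 4) and CML 5 and CML-TKI 3 marked 5 and 3. The groups are apart for Polr1b and Taf1d, CML-TKI 3 is the lowest point for Myc, Polr1b, Nop10, Dhx33 and Rrp12, and CML 5 is the lowest for Ncl.

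Box C/D particles add methyl groups to rRNA, and all 3 of their proteins had estimates below 0 with intervals within 2-fold. Fbl, the methyltransferase, gave -0.28 (95% interval -0.90 to 0.34), and its estimate was 0.07 without CML 5 and CML-TKI 3. Nop56 gave -0.07 (-0.60 to 0.47) and Nop58 gave -0.20 (-0.92 to 0.52), both scaffold proteins of the particle. Nop58 was at 54.7 CPM in CML 5, below the 127 to 157 CPM of CML 1 to 3.

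Box H/ACA particles convert uridine to pseudouridine, and 3 of their 4 proteins had estimates below 0. Nop10, at chr2:112261926-112262898, is a small protein that holds the catalytic subunit Dkc1 in place. It measured 41.7, 40.2, 29.6 and 71.5 CPM in CML 1, 2, 3 and 5, and 29.9, 28.1, 15.2 and 27.5 CPM in CML-TKI 1 to 4. CML-TKI 1 lay just above CML 3, and the other CML-TKI libraries lay below the CML range. Its log2 fold change, -0.84 (SE 0.35, 95% interval -1.63 to -0.05, edgeR adjusted p = 0.166), was the largest in size of the 45. It was -0.55 without CML 5 and -0.38 without CML 5 and CML-TKI 3. Dkc1, the pseudouridine synthase, gave -0.23 (-0.85 to 0.38) with CML 5 at 71.5 CPM against 135 to 147 CPM in CML 1 to 3. Gar1 and Nhp2, the remaining core proteins, gave -0.33 (-1.75 to 1.08) and 0.28 (-0.45 to 1.01). Without CML 5 the estimate of Gar1 was 0.10, without CML-TKI 4 it was -0.89, and without CML-TKI 1 that of Nhp2 was 0.02. Gar1, at 3.12 to 13.8 CPM over all 8 libraries, rested on 3 counts in CML-TKI 3.

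Of the 14 factors of the small subunit, 9 had estimates above 0 and 5 below, with a median log2 fold change of 0.08, beside 5912 of 11989 genes above 0 in the whole table. Utp15, Utp18, Utp20, Heatr1, Wdr43, Wdr75 and Nop14 belong to the processome that forms on the nascent precursor. Their estimates were 0.29, 0.24, 0.32, 0.41, -0.04, 0.46 and 0.03, and those of Wdr43 and Nop14 changed sign under 7 and 8 of 20 alternatives. Rrp9, which binds the U3 RNA of the same particle, gave -0.49. Wdr75 was at 129 CPM in CML-TKI 1 and between 40.9 and 78.0 CPM in all other libraries, and without CML-TKI 1 its estimate was 0.17.

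Heatr1 gave a range of 145 to 218 CPM in CML and 111 to 329 CPM in CML-TKI, with CML-TKI 3 the lowest and the other 3 above every CML library (95% interval -0.30 to 1.12). Utp20 showed the same 2 low libraries, CML 5 at 61.7 CPM and CML-TKI 3 at 66.3 CPM, among others at 143 to 241 CPM. The spread within each group was therefore larger than the difference between the means, 137 CPM in CML and 169 CPM in CML-TKI.

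Rrp12, at chr19:41859483-41896153, which helps to export and mature pre-ribosomes, had the lowest estimate of the small subunit factors. It lay at 78.1 to 107 CPM in CML and at 54.4, 68.3, 16.6 and 84.1 CPM in CML-TKI 1 to 4, with CML-TKI 4 inside the CML range (log2 fold change -0.72, SE 0.39, 95% interval -1.58 to 0.15, edgeR adjusted p = 0.28). Rrp9 was at 0 in CML-TKI 3, where 3 counts would be 4.15 CPM, and at 20.2 to 41.8 CPM elsewhere, so its interval was the widest of the 45 (-2.05 to 1.08). Nob1, the nuclease that makes the final cut of 18S rRNA, gave -0.44 (-1.25 to 0.37). Ltv1, which helps the small subunit to leave the nucleus, gave 0.46 (-0.26 to 1.18), one of 7 genes whose estimate stayed above 0 under every alternative tried. Ddx10, an RNA helicase, had equal means of 44.2 CPM, yet CML 5 was at 16.8 CPM against 48.2 to 56.2 CPM in CML 1 to 3. Tsr1 (-0.12) and Bysl (0.13), 2 late factors, overlap Srr and Ccnd3, and Tsr1 was at 16.6 CPM in CML-TKI 3 against 70.4 to 120 CPM in all other libraries.

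The 7 factors of the large subunit centred on 0, with a median log2 fold change of -0.03, 3 estimates above 0 and 4 below, and 5 of the 7 intervals within 2-fold. Pes1, Bop1 and Wdr12 form one complex that is needed to process the precursor of 28S and 5.8S rRNA, and gave 0.10 (-0.43 to 0.62), 0.20 (-0.44 to 0.84) and -0.25 (-1.01 to 0.52). The methyltransferase Nop2 gave 0.07 (-0.53 to 0.68), with its highest value, 150 CPM, in CML-TKI 1. Nop16 was the lowest of this role at -0.44 (-1.26 to 0.37), and its estimate was -0.03 without CML 5 and CML-TKI 3. Rrp1b gave -0.03 (-0.62 to 0.56), and Gnl3, also known as nucleostemin, gave -0.18 (-0.92 to 0.57).

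Of the other nucleolar proteins, 3 had estimates above 0 and 3 below. Dhx33, a helicase that associates with ribosomal DNA, lies at chr11:70984091-71004533. It measured 153, 135, 146 and 117 CPM in CML 1, 2, 3 and 5, and 85.7, 83.5, 78.8 and 135 CPM in CML-TKI 1 to 4. CML-TKI 1 to 3 lay below every CML library, and CML-TKI 4 lay within the CML range. The log2 fold change was -0.52 (SE 0.23, 95% interval -1.04 to -0.0031, edgeR adjusted p = 0.191), and -0.73 with an adjusted p of 0.0725 without CML-TKI 4.

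Npm1, the histone chaperone nucleophosmin, gave 0.29 (95% interval -0.21 to 0.80) and was 1 of the genes whose estimate stayed above 0 under every alternative. Ncl, nucleolin, at chr1:86344719-86359455, measured 635, 639, 577 and 200 CPM in CML and 545, 445, 238 and 430 CPM in CML-TKI. CML 5 was below all other libraries, and the fold change of -0.30 (95% interval -1.15 to 0.54) was -0.58 without it. Nolc1 and Ddx21, a nucleolar phosphoprotein and an RNA helicase, gave 0.31 (-0.63 to 1.26) and 0.36 (-0.52 to 1.24), and both were lowest in CML 5 and CML-TKI 3. Mybbp1a, which binds Myb and is found in pre-ribosomal complexes, gave -0.27 (-0.82 to 0.29).

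Single libraries stood apart within both groups. CML-TKI 3 was the lowest of all 8 libraries for 26 of the 44 protein-coding genes, CML 5 for 11, and the remaining 6 libraries for 7 together. CML-TKI 1 was the highest for 15, CML 5 for 10 and CML-TKI 2 for 8. Relative to the other 3 CML-TKI libraries, CML-TKI 3 was below all in 35 of the 45 genes, within their range in 8 and above all in 2, beside 31.5%, 42.4% and 26.1% of all genes. That library also held the fewest counts, and its 24835 CPM of summed erythroid markers, of which 24741 CPM were Hba-a1 (alpha globin), stood against 49.5 to 543 CPM in the other 7. The part of depth and of globin in the low values was not tested.

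**Figure D5:**
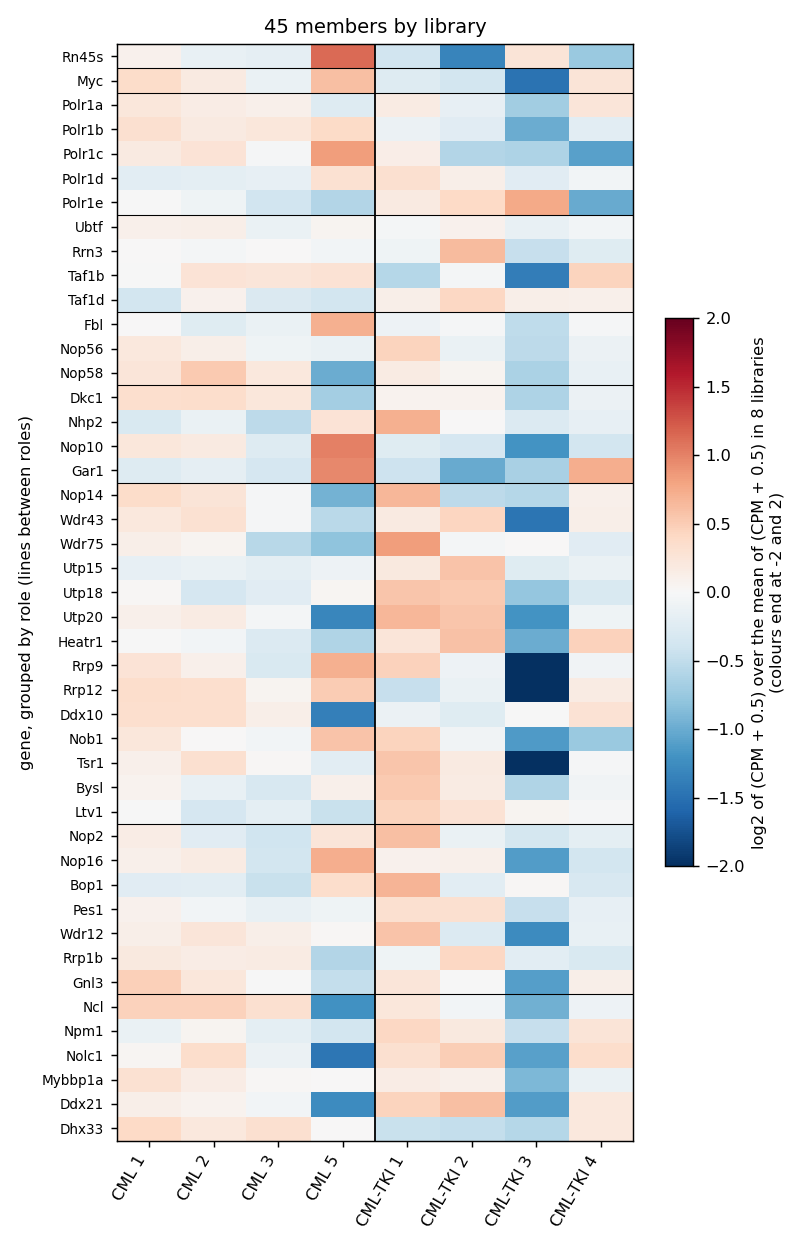
Level of each of the 45 genes (rows, grouped by role) in each library (columns) as the log2 of CPM + 0.5 over the mean of CPM + 0.5 in the 8 libraries, red above and blue below, with colours ending at -2 and 2. CML-TKI 3 is blue for most rows, and CML 5 holds both the strongest reds (Rn45s, Nop10, Gar1) and strong blues (Ncl, Nolc1, Ddx10, Utp20, Ddx21).

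CML 5 departed from CML 1 to 3 in both directions rather than by a shift. It was below all 3 in 23 of the 45 genes, within their range in 3 and above all 3 in 19, beside 37.2%, 17.7% and 45.1% of all genes. Against the mean of CML 1 to 3, it stood at 0.32 times for Ncl and for Ddx10, 0.34 for Nolc1, 0.38 for Utp20, and 0.40 for Nop58 and for Ddx21. It stood at 2.32 times for Gar1 and for Rn45s, 1.91 for Nop10 and 1.76 for Fbl. Proteins of one particle thus parted in this library, with Gar1 and Nop10 high and Dkc1 at 0.50 times, and with Fbl high and Nop58 low.

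Genes that contain small nucleolar RNA genes were looked at after the pattern of CML 5 was seen, and their difference from other genes was not tested. RefSeq places 25 small nucleolar RNA genes inside 8 of the 44 protein-coding genes (18.2%), namely Taf1d, Nop56, Nop58, Dkc1, Wdr43, Tsr1, Gnl3 and Ncl, beside 282 of 11456 protein-coding genes tested (2.46%). Of these 8, CML 5 lay below CML 1 to 3 in 7 and above them in 0, while of the other 36 it lay below in 16 and above in 18. Over all 282 such genes it lay below in 144 (51.1%) and above in 99, beside 37.2% below among all genes tested. Their fold changes between the groups were below 0 in 7 of 8, with Taf1d the exception, and had a median of -0.15, beside 0.01 for the other 36, -0.08 for all 282 and 6077 of 11989 genes below 0 in the whole table. Of the 25 small nucleolar RNAs, Snora75 had a row, with 0 to 5 counts per library.

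A further 120 genes of ribosome biogenesis that were not in the module were read from the same fit. By edgeR, 1 was called higher in CML-TKI, beside 6.26% of all genes, and 0 were called lower, beside 4.07%. At an unadjusted p under 0.05 there were 5 higher and 6 lower (25.8% of all genes in either direction), DESeq2 called 3 higher and 2 lower (18.5% of all genes), and limma-voom called 3 higher and 0 lower (21.7%). Estimates were above 0 for 61 and below 0 for 59, with a median log2 fold change of 0.02 and a range of -1.21 to 1.58. The CML-TKI libraries lay wholly above the CML libraries for 9 of the 120 and wholly below for 5, beside 10.1% and 13.5% of all genes. The called gene, Mphosph10, is a U3-bound factor of the small subunit. It measured 7.49, 8.37, 8.92 and 5.25 CPM in CML, and 16.6, 18.7, 37.3 and 18.8 CPM in CML-TKI. Every CML-TKI library lay above every CML library, as for 10.1% of all genes (log2 fold change 1.58, SE 0.44, edgeR adjusted p = 0.0484), on 27 to 70 counts per library. The call did not hold when any library but CML-TKI 1 was left out, with CML 1 to 3 summed, with DESeq2's size factors, with library totals alone, with no filter on low counts or at the depth of CML-TKI 3, where edgeR called none of the 120 higher.

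By role, the median log2 fold change of these 120 genes was -0.29 for 11 other polymerase I genes. The 11 were subunits, some shared with other polymerases, initiation factors, and the termination factor Ttf1. The median was 0.05 for 44 small subunit factors and -0.03 for 51 large subunit factors. It was 0.03 for 14 genes of the exosome, the nuclease that trims the 5.8S precursor. The cytosolic ribosomal proteins, which are the clients of this machinery, were set beside them. Of 75 tested, 72 had estimates below 0, with a median of -0.47, and for 24 all 4 CML-TKI values were below all 4 CML values, beside 13.5% of all genes. edgeR called 1 of them, Rpl22 at -1.63 (adjusted p = 0.0036). One library carried much of this median, since CML 5 lay above CML 1 to 3 in 70 of the 75, beside 45.1% of all genes. The median was -0.22 without CML 5, with 57 estimates below 0, and -0.13 without CML 5 and CML-TKI 3, with 53 below 0. In these same fits the median of the 45 genes was -0.19 and 0.07. The difference between these proteins and the 45 genes was not tested.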

How the data were processed

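Total RNA was isolated from sorted cells with the RNeasy Plus mini kit, and libraries were made with Nextera XT. Per the labels, the authors aligned reads with STAR 2.6.1d and used Partek 8.0, with mm10. The deposited values are estimated counts per gene, not normalized, 1 column per library. 7 of the 45 genes had values that were not whole within 0.01, and all were rounded. Strand and the treatment of shared reads are not given in the sources used here, so overlapping genes (13 of the 45) are uncertain. Rn45s is not in the RefSeq gene table used, and the other 44 symbols matched.

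Library totals without Rn45s (807250 to 5630641 counts) were multiplied by TMM factors computed without it, CPM values use these totals, and Rn45s was tested in the same fit. Genes passing filterByExpr (minimum count 10, minimum total 15) were tested by the robust quasi-likelihood method of edgeR 4.0.16 (R 4.3.3) with Benjamini-Hochberg adjustment over 11989 genes and a threshold of 0.05. The test was run on simulated data first. Standard errors come from the F statistic. Floors of 3 counts cover counting error only. The share of Rn45s was compared by an exact permutation test. DESeq2 1.42.0, limma 3.58.1 (voom), normalization, filter, depth, replicate block and libraries were alternatives.

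The genes, lists and tests were chosen with earlier results of these data known. By rule, every library's value was given for Rn45s, Myc, genes past the threshold and the 2 others with the largest absolute log2 fold change (Nop10 and Polr1c), and for genes past the threshold in the other lists. The other genes given in each library were chosen after their values were seen. CML 1 to 3 are separate samples in the labels and differed by more than counting noise, which does not show that they came from separate animals, so they were used as 3 samples and, as an alternative, summed to 1.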

Additional observations from a re-analysis of the deposited data

Results flagged for a closer look

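Of 94 sets of 4 libraries examined (each of the 45 genes in each group, summed levels and shares), 15 had 1 library far from the other 3 by Dixon's criterion, where chance gives about 4.7. CML 5 was high for Rn45s, at 597000 CPM against 240991 to 287721 CPM, and at 38.3% of all counts against 20.2% to 23.1%. It was also high for Polr1d, at 82.7 CPM against 57.4 to 59.3, and for Gar1, at 13.8 CPM against 5.30 to 5.98. It was low for Ncl, at 200 CPM against 577 to 639, for Dkc1, at 71.5 CPM against 135 to 147, and for Rrp1b, at 53.0 CPM against 88.0 to 91.8.

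CML-TKI 3 was low for Polr1b, at 71.8 CPM against 122 to 132, for Fbl, at 40.1 CPM against 53.7 to 56.3, for Nop10, at 15.2 CPM against 27.5 to 29.9, and for Nolc1, at 31.8 CPM against 85.0 to 95.6. CML-TKI 1 was high for Wdr75, at 129 CPM against 61.5 to 71.8, and for Nop2, at 150 CPM against 77.4 to 89.7. CML-TKI 2 was high for Taf1d, at 32.4 CPM against 25.9 to 26.4. CML-TKI 4 was high for Dhx33, at 135 CPM against 78.8 to 85.7.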

How the results depend on the processing

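Over 20 alternatives, 880 of 898 estimates of single genes moved by less than their standard error or kept their call, 16 moved by more and 2 gained a call (Polr1b by DESeq2, Polr1c without CML-TKI 1), and 71 estimates, none of them called, changed sign. The estimate kept its sign under every alternative for 21 genes, 14 below 0 and 7 above. No alternative called a gene of the module higher. The number called lower, 0 by edgeR, was 1 by DESeq2 and 0 to 1 when each library was left out in turn (1 without CML-TKI 1, in a fit that called 20.6% of all genes). The number of the 120 other biogenesis genes called higher, 1 by edgeR, was 3 by DESeq2, 3 by limma-voom, and 0 with DESeq2's size factors, with totals without Rn45s and no TMM, with totals with Rn45s, with no filter on low counts, with CML 1 to 3 summed to 1 library and with every library thinned to the smallest total. It was 0 to 1 when each library was left out (1 without CML-TKI 1, 0 without any of the other 7). The number called lower, 0 by edgeR, was 2 by DESeq2, 2 without CML 5 and CML-TKI 3, 0 to 2 when each library was left out (2 without CML-TKI 1, 1 without CML-TKI 3). The cause was not tested.

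The difference in the Rn45s share was below 0 under every alternative, from -14.1 points with CML 1 to 3 averaged to 1 library to -4.95 points in the replicate block. When each library was left out, the exact permutation p was 0.0571 to 0.229 (smallest possible 0.0286), and with CML 1 to 3 averaged it was 0.133 (smallest possible 0.0667). Totals without Rn45s and without TMM moved the median of all genes to -0.14 and that of the 45 to -0.18. Calls over all genes ranged from 123 with CML 1 to 3 summed to 2598 by limma-voom, and were 1238 by edgeR. Labels share numbers 1 to 3 between groups, but same-numbered libraries deviated together with correlations of only -0.02, 0.15 and 0.09, and not every library correlated best with its own number, so the numbers were not taken as pairs. The replicate block on these 6 libraries called 163 genes in all, against 588 without a block on the same libraries, and called 0 of the 45, against 1 (Dhx33), and 0 of the 120 higher. Its Rn45s difference was -4.95 points (exact permutation p = 0.5, where 3 pairs cannot go below 0.25). Depth limited CML-TKI 3 most, where 19 of the 45 genes had under 30 counts.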
